A study of Rattus norvegicus with 16 samples.

Results

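The genes described here are those of the proteasome, the protease complex that breaks down ubiquitin-tagged proteins, in the liver of male rats aged 13 weeks. They were taken from a liver RNA sequencing table by symbol, as the rows that begin with Psm, 1 of the letters a to g and a digit, and that averaged at least 14.7 normalized counts over 16 libraries. Of 22587 rows in the table, 50 matched the symbol and 48 passed the mean. The 2 that did not were Psmb11, the thymus-specific catalytic subunit, with a mean of 0.092, and Psma8, the testis form of an alpha subunit, with a mean of 5.74. Just above the threshold stood Psmc3ip, with a mean of 16.7, and then Psmg3, with a mean of 38.1. Of the 48 rows, 46 are subunits, regulators or assembly factors of the proteasome. The other 2 are Psmc3ip, a meiotic recombination protein named for binding an ATPase of the complex, and Psme1-ps1, a pseudogene row.

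The animals, of a strain spelled Wistar-Wyoto in the labels, had undergone total bilateral adrenalectomy (ADREX, both adrenal glands removed, which takes away the main source of corticosterone and adrenaline) or a sham operation (SHAM). Each then breathed ozone at 0.8 ppm or air for 4 hours. The 4 groups are ADREX ozone, ADREX air, SHAM ozone and SHAM air, with 4 libraries each, taken from the sample titles. In the treatment field the 4 ADREX libraries titled as air also carry ozone, so all 8 ADREX libraries do; the titles fit the stated design and were used. The labels do not say that libraries of a group came from separate animals, so p-values measure the spread between these samples, which may be technical. In bulk liver, fewer cells of a type and less RNA per cell cannot be told apart.

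The 20S core of the proteasome is a barrel of stacked rings: outer rings of alpha subunits that guard the entrance and inner rings of beta subunits, some of which cut the substrate. Psmb5, Psmb6 and Psmb7 are the constitutive catalytic subunits, and Psmb8, Psmb9 and Psmb10 take their places in the immunoproteasome, a form that interferon signalling induces and that shapes peptides for MHC class I. The 19S cap recognises ubiquitin chains and unfolds the substrate with a ring of ATPases (Psmc genes) held by non-ATPase subunits (Psmd genes). Other caps open the core without ATP: PA28 (Psme1 and Psme2, or Psme3 in the nucleus) and PA200 (Psme4). In the liver the complex takes part in protein quality control and in the breakdown of metabolic enzymes, and glucocorticoids are known to raise proteasome activity in muscle during wasting.

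The start-site sequences of the subunits on which the comparisons turn are shown first, because the immunoproteasome and constitutive genes are known to answer to different factors. They are the 80 bases before and the first 10 bases after the annotated start in RefSeq on build GRCr8, read 5′ to 3′ on the gene's own strand. Capitals mark matches, on either strand, to the core of the interferon-stimulated response element (GAAA, any 2 bases, GAAA) in Psmb8, Psmb10 and Psme2, to TGACNNNGC (the antioxidant response element core, read by the NRF1 and NRF2 factors) in Psmb5 and Psme4, and to CCGGAAGT (an ETS factor motif) in Psme4.
Psmb8, chr20:4657022-4657111, minus strand: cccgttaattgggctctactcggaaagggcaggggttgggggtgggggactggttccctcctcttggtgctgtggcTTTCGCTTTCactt
Psmb9, chr20:4668920-4669009, plus strand: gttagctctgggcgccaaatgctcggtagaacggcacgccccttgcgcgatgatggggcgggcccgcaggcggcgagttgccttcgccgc
Psmb10, chr19:50743283-50743372, minus strand: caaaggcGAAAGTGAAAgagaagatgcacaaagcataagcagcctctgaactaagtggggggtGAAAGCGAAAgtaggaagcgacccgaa
Psme2, chr15:33052742-33052831, minus strand: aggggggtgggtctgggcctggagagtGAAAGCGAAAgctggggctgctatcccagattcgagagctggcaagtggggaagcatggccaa
Psmb5, chr15:32047370-32047459, minus strand: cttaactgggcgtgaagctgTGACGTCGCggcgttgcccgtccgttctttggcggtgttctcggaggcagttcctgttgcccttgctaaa
Psme4, chr14:108706563-108706652, plus strand: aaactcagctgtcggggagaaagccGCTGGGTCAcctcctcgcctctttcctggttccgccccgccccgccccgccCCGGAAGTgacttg

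In the full 300-base windows (250 bases before to 50 after the start), available for 43 of the 48 rows and searched on both strands, the interferon-stimulated core occurred in 7 genes: Psma4, Psmb3, Psmb8, Psmb10, Psmd7, Psme2 and Psmg4. It occurred in 3.92% of all 33469 such windows. Psmb10 held it at 2 positions, both shown above. TGACNNNGC occurred in 8 genes (12.1% of all windows), namely Psma3, Psmb2, Psmb5, Psmb6, Psmd1, Psmd3, Psmd9 and Psme4. CCGGAAGT also occurred in 8 genes (3.81% of all windows), among them Psmb7, Psmg1, Psmg3 and Psme4. The CCAAT box, the site of the NF-Y factor, occurred in 22 genes (37.5% of all windows), and TTCNNNGAA, the core bound by STAT factors, in 4 genes (8.87% of all windows), Psmb8 among them. A match describes letters and is not a bound site.

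Recovered reads per library totalled between 8372891 and 14096246. Fkbp5, a glucocorticoid receptor target, serves here as a check of ADREX against SHAM under ozone. It had 481, 348, 179 and 452 normalized counts in ADREX ozone livers and 2897, 1352, 1735 and 2433 in SHAM ozone livers, without overlap. In ADREX air livers it had 295, 279, 460 and 267, within the ADREX ozone range, so it cannot check air against ozone in ADREX. SHAM air livers had 415, 593, 405 and 512. These overlapped the ADREX air values, so Fkbp5 does not check ADREX against SHAM in air either. Transcripts of brain and nerve cells, which liver should hardly contain, were present in unequal amounts: the summed level of 25 neural markers reached 867 to 4959 RPM (recovered reads scaled to the library total) in ADREX ozone, 284 to 1236 in ADREX air, 79.0 to 3019 in SHAM ozone and 45.6 to 879 in SHAM air livers, and 3 of the 25 (Rbfox3, Gad2 and Nrgn) had 0 reads in at least 1 library. The 3 richest libraries were ADREX ozone replicates 82 and 81 and SHAM ozone replicate 18. The summed level of 8 hepatocyte markers was far higher in every library, from 106884 to 210199 RPM. Values without these 3 libraries are given beside many of the results they change.

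Across the 48 rows, 1 gene passed the threshold in 1 of the 5 comparisons made. Tests were limma fits on log2(normalized count + 1) to 12788 genes, with Benjamini-Hochberg adjustment over all of them and a threshold of 0.05. In ADREX ozone against SHAM ozone livers, Psme4 fell and no member rose, while 12.5% of all genes tested were called. In ADREX air against SHAM air livers 0 members were called (3.53% of all genes), with ozone against air in ADREX livers 0 (0.125%), with ozone against air in SHAM livers 0 (1.58%), and for the difference between the ozone effects in ADREX and SHAM livers 0 (0.109%). These shares rest on single libraries: on leaving out 1 library the number of genes called ran from 787 to 1846 in ADREX against SHAM under ozone, from 194 to 1004 in air, from 0 to 50 with ozone in ADREX, from 38 to 658 with ozone in SHAM and from 3 to 33 for the difference. At an unadjusted p under 0.05 limma gave 7 members in ADREX against SHAM under ozone (31.2% of all genes), 7 in ADREX against SHAM in air (20.2%), 4 with ozone in ADREX (17.8%), 4 with ozone in SHAM (18.4%) and 4 for the difference (12.9%). Run on the recovered reads, edgeR called Psme4 under ozone and no other member, where it called 12.4% of all genes in ADREX against SHAM under ozone, 2.96% in ADREX against SHAM in air, 0.383% with ozone in ADREX, 1.38% with ozone in SHAM and 0.188% for the difference. DESeq2 called Psme4 in the same comparison and Psmc5 with ozone in SHAM, with 17.2%, 6.52%, 4.46%, 4.22% and 1.95% of all genes called in the same order of comparisons. The 95% interval of a member's log2 change, without adjustment for the number of genes, reached a median of 0.46 to either side in the 4 comparisons between groups. A call also had to pass the adjustment over all genes, so changes larger than that could be missed. Psmb8 at -0.93 in ADREX against SHAM in air, for example, was not called.

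**Figure D1:**
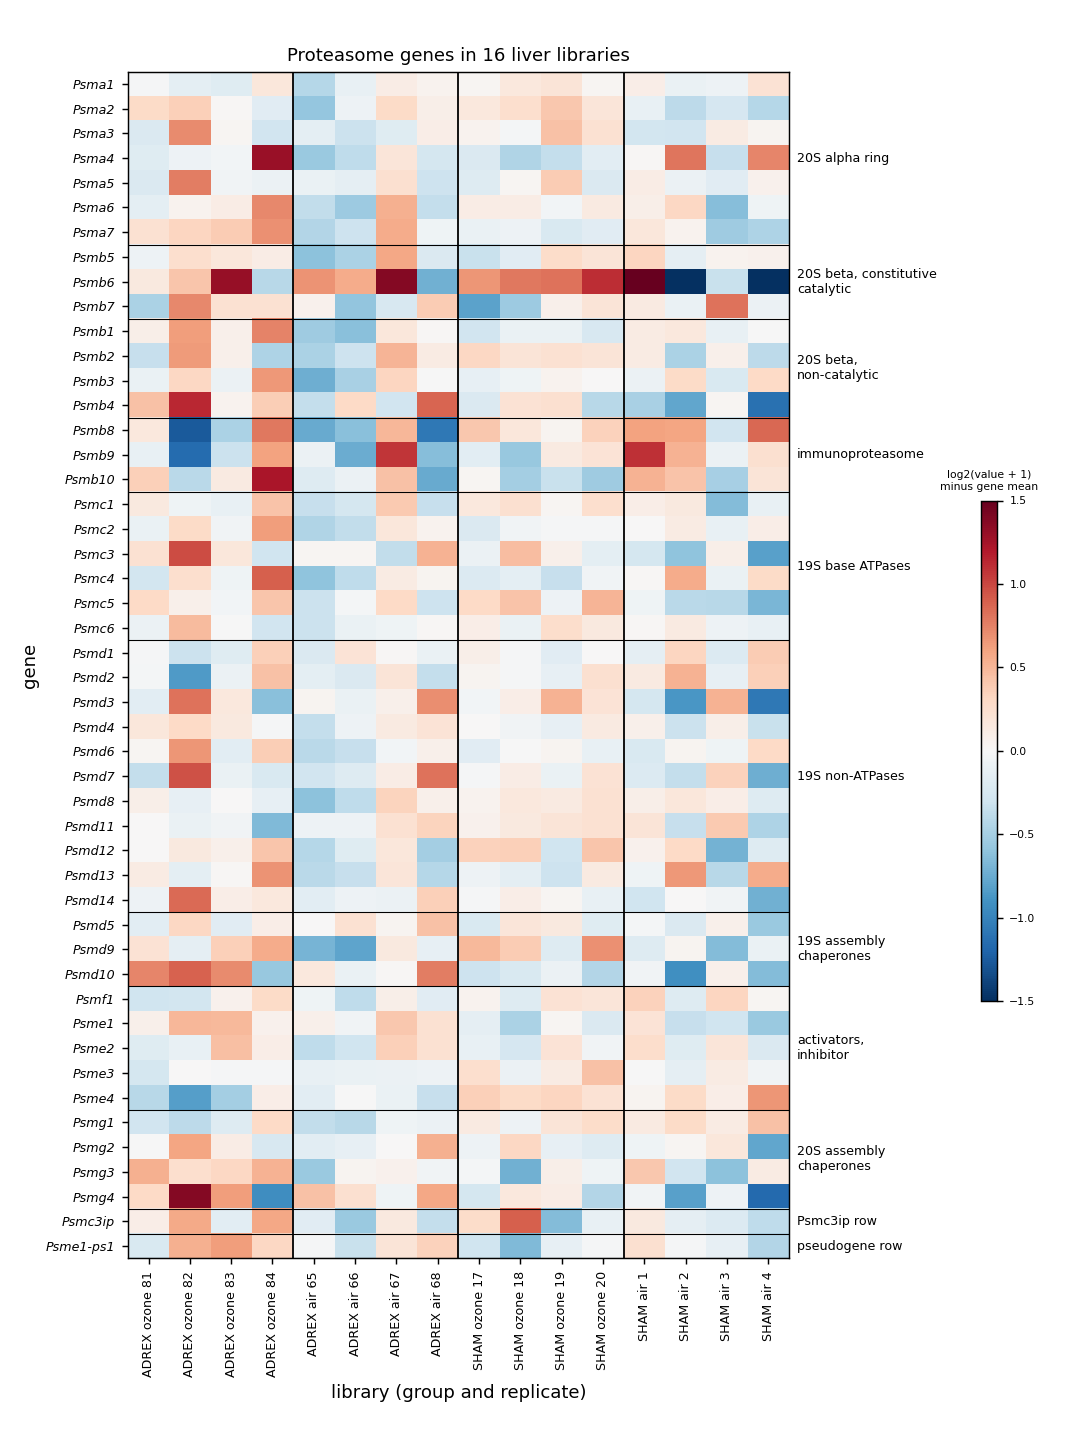
Heat map of the 48 rows (down the page, grouped by role) in 16 libraries (across, by group), coloured by log2(normalized count + 1) minus the gene's mean over all libraries, with the colour scale ending at 1.5 either way. Psme4 is below its mean in 3 of 4 ADREX ozone and all 4 ADREX air libraries, and ADREX ozone replicates 82 and 84 hold the highest value of 15 and 11 rows.

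Psme4 encodes PA200, a large cap of the core that works without ATP and is known for degrading acetylated histones. It had 2247, 1703, 2109.7 and 3214 normalized counts in ADREX ozone livers and 3846, 3682, 3777 and 3510.0 in SHAM ozone livers. All 4 ADREX ozone values lay below all 4 SHAM ozone values. The log2 change was -0.71 ± 0.18 (SE), with a 95% interval of -1.09 to -0.33, and limma's adjusted p was 0.0177. The call was lost without ADREX ozone replicate 82 (log2 change -0.58, adjusted p = 0.0554), without SHAM ozone replicate 17 (-0.70, 0.0509), when the 3 libraries with the highest neural level were left out (-0.51, 0.212) and with the neural level as a covariate (-0.62, 0.0609). In air, Psme4 had 2687, 2988, 2801 and 2372 normalized counts in ADREX livers and 3098, 3663, 3233 and 4748 in SHAM livers, again without overlap, but the log2 change of -0.43 ± 0.18 (SE) gave an adjusted p of 0.202 in limma. Ozone against air gave -0.26 in ADREX livers (adjusted p = 0.479) and 0.03 in SHAM livers (0.952), and the difference between these was -0.29 with an interval of -0.82 to 0.25.

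The PA28 genes and the inhibitor showed no call. Psme1, which forms the PA28 ring together with Psme2, had 1918, 2556, 2543 and 1904 normalized counts in ADREX ozone livers and 1661, 1306, 1854 and 1568 in SHAM ozone livers, with every ADREX value the higher. Its log2 change was 0.48 ± 0.18 (SE), with a limma adjusted p of 0.0856. Array quality weights brought Psme1 past the threshold (adjusted p = 0.0403). This was 1 of 28 settings, and over all of them the adjusted p reached 0.357. Psme2 gave 0.12, Psme3, the nuclear PA28, -0.25, and Psmf1, an inhibitor of the core, -0.12, all with adjusted p above that of Psme1. The row Psme1-ps1 had 298, 505, 539.8 and 432 normalized counts in ADREX ozone livers and 284, 220.2, 321 and 345 in SHAM ozone livers, and its log2 change of 0.58 had an adjusted p of 0.0828 in limma, or 0.76 with 0.0326 without ADREX ozone replicate 81. The row was called in 1 of 28 settings, with adjusted p up to 0.193. Reads of Psme1 and of this copy may not be separable, since the sources used here do not state how reads matching both were counted.

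**Figure D2:**
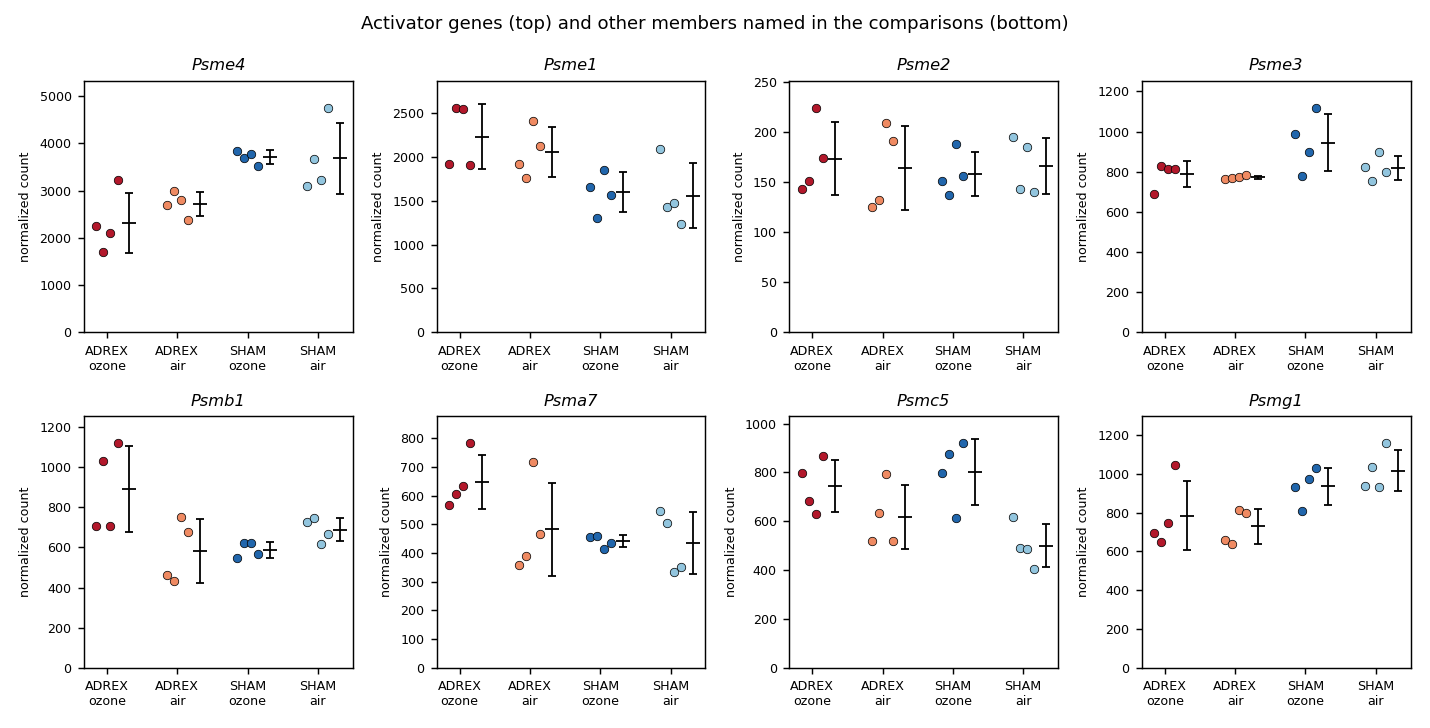
Normalized counts of 8 genes in each library (points) with the group mean and SD (bars to the right), for ADREX ozone, ADREX air, SHAM ozone and SHAM air livers. Psme4 lies at 1703 to 3214 in ADREX ozone livers and 3510.0 to 3846 in SHAM ozone livers; the other 7 panels show changes that did not pass the threshold.

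The immunoproteasome subunits Psmb8, Psmb9 and Psmb10 passed the threshold in no comparison by limma, edgeR or DESeq2. At an unadjusted p under 0.05 limma gave Psmb8 in ADREX against SHAM in air and Psmb10 for the difference of the ozone effects. With the neural level as a covariate, limma called Psmb10 in ADREX against SHAM under ozone (log2 change 1.02, adjusted p = 0.0373), and with array quality weights it called Psmb8 in air. Psmb8, which replaces Psmb5, had 799, 299.6, 515 and 1243 normalized counts in ADREX ozone, 425, 465, 1017 and 341 in ADREX air, 951, 805, 739 and 909.9 in SHAM ozone and 1091, 1082, 590.0 and 1302 in SHAM air livers. The 4 ADREX ozone libraries spanned a wider range than the 4 SHAM ozone libraries, and the ADREX air and SHAM air groups overlapped through ADREX air replicate 67 and SHAM air replicate 3. In ADREX air against SHAM air livers its log2 change was -0.93 ± 0.38 (SE), with an interval of -1.74 to -0.12 and a limma adjusted p of 0.197. With the neural level as a covariate this value was -0.54 (adjusted p = 0.539), and with array quality weights it was -1.16 (0.0236).

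Psmb9, which replaces Psmb6 and lies beside Psmb8 on chromosome 20, had 81.2, 38.8, 70.2 and 134 normalized counts in ADREX ozone, 82.4, 51.9, 186 and 56.3 in ADREX air, 78.5, 58.7, 96.9 and 102 in SHAM ozone and 189, 126, 82.5 and 104 in SHAM air livers. Psmb10, which replaces Psmb7, had 412, 242, 354 and 756 in ADREX ozone, 280.1, 303, 435 and 191 in ADREX air, 328, 225, 255 and 223 in SHAM ozone and 461, 432, 228 and 367 in SHAM air livers. Both genes overlapped between groups in each comparison. ADREX ozone replicate 82 held the lowest Psmb8 and Psmb9 values of the study, and ADREX ozone replicate 84 the highest Psmb10 value. For Psmb10 the ozone effect differed by 0.98 ± 0.45 (SE) on the log2 scale between ADREX and SHAM livers, with an adjusted p of 0.375 in limma.

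As a trio, the immunoproteasome genes had a median log2 change of -0.15 in ADREX against SHAM under ozone, -0.54 in ADREX against SHAM in air, 0.29 with ozone in ADREX livers and -0.50 with ozone in SHAM livers. The other 45 rows had medians of 0.11, -0.06, 0.20 and 0.11 in the same comparisons, and all 12788 genes had 0.11, 0.04, 0.06 and 0.01. All 3 were lower in ADREX air than in SHAM air livers and lower in SHAM ozone than in SHAM air livers by their means, and the 2 comparisons share the SHAM air libraries. The summed level of 10 leukocyte markers, cells that carry much immunoproteasome, was 60.6 to 82.7 RPM in ADREX ozone and 55.7 to 98.5 in ADREX air livers, and 32.3 to 48.0 in SHAM ozone and 38.0 to 62.7 in SHAM air livers, with Cd3g and Ms4a1 at 0 reads in at least 1 library. Their part in the result was not tested.

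The constitutive counterparts were also without a call. Psmb5, the chymotrypsin-like subunit, had 345, 435, 411 and 394 normalized counts in ADREX ozone, 239, 263, 547 and 314 in ADREX air, 288, 324, 443 and 417 in SHAM ozone and 458, 332, 379 and 381 in SHAM air livers. Psmb7, the trypsin-like subunit, had 1283, 2940.2, 2093 and 2099.8 in ADREX ozone, 1877, 1189, 1512 and 2321 in ADREX air, 1021, 1226, 1885 and 2043 in SHAM ozone and 1957, 1676, 3158 and 1688 in SHAM air livers. Groups overlapped for both genes in every comparison. Psmb6, the caspase-like subunit, stood at 38.9, 47.1, 87.8 and 25.9 in ADREX ozone, 56.5, 51.9, 92.3 and 20.8 in ADREX air, 55.9, 61.2, 62 and 76.7 in SHAM ozone and 121, 3.60, 27.5 and 0 in SHAM air livers. Its log2 change of 2.52 ± 1.0 (SE) with ozone in SHAM livers had a limma adjusted p of 0.20 and came with SHAM air replicates 2 and 4 near 0: it was 1.36 without replicate 4, 1.36 with a pseudocount of 10 and 0.74 in edgeR, but 3.67 (adjusted p = 0.0436) without replicate 1. In ADREX against SHAM in air it was 2.15 (adjusted p = 0.238), or 3.29 (0.0432) without that same library. RefSeq names 3 copies of Psmb6, and none of them is a row of the table, so reads of Psmb6 may be shared with them.

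**Figure D3:**
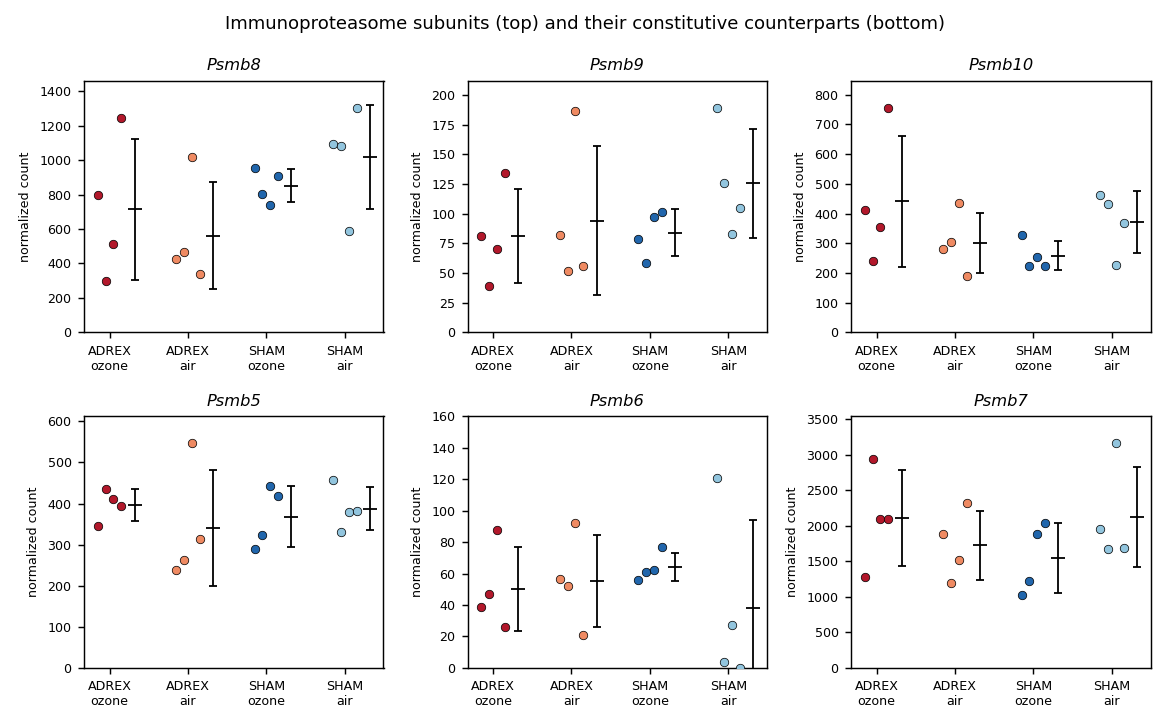
Normalized counts of the immunoproteasome subunits (top) and of the constitutive subunits they replace (bottom) in each library (points), with the group mean and SD (bars to the right); the SD bar of Psmb6 in SHAM air livers is cut at 0. All 3 upper genes spread more among ADREX ozone than among SHAM ozone libraries.

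The balance between the forms was compared as the log2 ratio of each immunoproteasome subunit to its counterpart within a library, with 1 added to each value. Over 3 pairs and 4 comparisons, 12 exact two-sided permutation tests were made, and the smallest adjusted p was 0.343. The smallest permutation p that 4 against 4 libraries allow is 0.0286. Reached in only 1 of the 12 tests, it becomes 0.343 after adjustment. No ratio could therefore pass the threshold on its own, and these tests do not show that the balance was unchanged. The Psmb8 to Psmb5 ratio averaged 0.66 ± 0.97 in ADREX ozone, 0.67 ± 0.37 in ADREX air, 1.22 ± 0.41 in SHAM ozone and 1.34 ± 0.52 in SHAM air livers (SD, n = 4 each). ADREX minus SHAM was -0.67 in air (exact permutation p = 0.114, adjusted 0.457) and -0.56 under ozone (0.371, adjusted 1). The difference under ozone ran from -0.89 without ADREX ozone replicate 84 to -0.16 without replicate 82. It was -0.20 when the 3 libraries with the highest neural level were left out. Ozone minus air was -0.0033 in ADREX and -0.12 in SHAM livers. For Psmb10 to Psmb7 the differences between groups ran from -0.03 to 0.22. Without the 3 libraries of highest neural level these differences ran from -0.07 with ozone in SHAM to 0.55 in ADREX against SHAM under ozone. With ozone in ADREX the value was then 0.51, against 0.21 with all libraries. The Psmb9 to Psmb6 ratio differed by -3.06 between SHAM ozone and SHAM air livers, with an exact permutation p of 0.0286, the smallest that 4 against 4 libraries allow, and by -2.69 between ADREX air and SHAM air livers (0.114, adjusted 0.457). Both comparisons share the SHAM air libraries with near-0 Psmb6 values: without SHAM air replicate 4 the differences were -1.96 and -1.59, without replicate 1 they were -3.99 and -3.62, and with a pseudocount of 10 they were -1.86 and -1.56.

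The alpha ring genes, whose subunits form the gate and the seat of the caps, had 7 of 7 log2 changes above 0 with ozone in ADREX livers, against 56.6% of all genes, with a median of 0.20, and none passed the threshold. The count was 6 of 7 under TMM rescaling and 5 of 7 without ADREX ozone replicate 82. With ozone in SHAM livers 6 of 7 were also above 0, against 51.0% of all genes. Psma7 had 569.5, 606, 635 and 783 normalized counts in ADREX ozone, 358, 391, 718 and 466 in ADREX air, 456, 460.0, 415 and 434 in SHAM ozone and 548, 504, 335 and 353 in SHAM air livers. Each ADREX ozone library exceeded each SHAM ozone library, while ADREX air replicate 67 lay within the ADREX ozone range. The log2 change was 0.47 ± 0.21 (SE, adjusted p = 0.260) with ozone in ADREX livers and 0.55 ± 0.21 (0.0931) in ADREX against SHAM under ozone, both from limma. The second was called without ADREX air replicate 67, which enters through the shared spread (adjusted p = 0.045), in a fit to the 2 groups alone (0.035) and with array quality weights (0.0387).

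Psma2 had 307, 327, 363 and 311 normalized counts in SHAM ozone and 254, 209, 230.0 and 205 in SHAM air livers, without overlap. Its log2 change was 0.54 ± 0.18 (SE), with a limma adjusted p of 0.130. Psma4 had 616, 666, 681 and 1716 in ADREX ozone, 474, 538, 792 and 582 in ADREX air, 602, 511, 546 and 628 in SHAM ozone and 709.8, 1223, 549 and 1168 in SHAM air livers. ADREX ozone replicate 84 and SHAM air replicates 2 and 4 stood above all others, and the ozone effects differed by 1.10 ± 0.43 (SE) on the log2 scale (adjusted p = 0.303), or by 0.76 without ADREX ozone replicate 84. Psma1, Psma3, Psma5 and Psma6 gave log2 changes between -0.15 and 0.37 in the 4 comparisons between groups.

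Among the beta subunits without a cutting site, Psmb1 had the smallest p in ADREX against SHAM under ozone, with ozone in ADREX livers and for the difference of the ozone effects. Its values were 708, 1029.7, 705 and 1118 normalized counts in ADREX ozone, 463, 431, 754 and 676 in ADREX air, 545, 623, 620.3 and 565 in SHAM ozone and 725, 746, 619 and 664 in SHAM air livers. Every ADREX ozone library exceeded every SHAM ozone library, and ADREX air replicate 67 was the 1 ADREX air library above the lowest ADREX ozone library. The log2 change was 0.57 ± 0.19 (SE, adjusted p = 0.065) in ADREX against SHAM under ozone and 0.62 ± 0.19 (0.151) with ozone in ADREX livers, and the ozone effects differed by 0.85 ± 0.27 (0.220), all from limma. The first was called without ADREX air replicate 67 (adjusted p = 0.0455) and with array quality weights (0.044). These were 2 of 28 settings, and over all of them the adjusted p reached 0.191. Psmb2 had 530.0, 492, 504 and 488 in SHAM ozone and 467, 307, 451 and 325 in SHAM air livers, without overlap, with a log2 change of 0.40 (adjusted p = 0.392). Psmb4 averaged 1193 ± 503 in ADREX air and 709 ± 245 in SHAM air livers (SD, n = 4 each), a log2 change of 0.72 with an adjusted p of 0.198 in limma. It was 0.47 without ADREX air replicate 68 and 0.34 with the neural level as a covariate. Psmb3 gave log2 changes between -0.30 and 0.42 in the comparisons between groups.

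The 19S ATPases unfold the substrate and thread it into the core. With ozone in ADREX livers all 6 had log2 changes above 0, between 0.14 and 0.41, against 56.6% of all genes. None was called, and without ADREX ozone replicate 82 the count was 4 of 6. Of the 11 non-ATPase subunits of the same cap, 7 were above 0 with ozone in ADREX livers, with a median of 0.10. Psmc5 had 796, 873, 614 and 919 normalized counts in SHAM ozone livers and 619, 490.1, 486 and 403 in SHAM air livers. The groups met at SHAM ozone replicate 19, which lay just under SHAM air replicate 1. The log2 change was 0.68 ± 0.18 (SE), the interval 0.29 to 1.07 and the limma adjusted p 0.0708. It was called by DESeq2 (0.69, adjusted p = 0.0293), with array quality weights (0.65, 0.0251) and without SHAM ozone replicate 19 (0.80, 0.0412). These were 3 of 28 settings, and over all of them the adjusted p reached 0.206. For Psmc4 the ozone effects differed by 0.79 ± 0.33 (SE) on the log2 scale between ADREX and SHAM livers (adjusted p = 0.331).

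The 11 non-ATPase subunits of the 19S cap, among them the ubiquitin receptor Psmd4 and the deubiquitinase Psmd14, had no call in any comparison by limma, edgeR or DESeq2, and 1 of them, Psmd6 with ozone in ADREX livers, had an unadjusted p under 0.05. Psmd11, a scaffold subunit of the lid, had 1522, 1416, 1470.1 and 961 normalized counts in ADREX ozone livers and 1587, 1687, 1739 and 1779 in SHAM ozone livers, without overlap. ADREX ozone replicate 84 was the lowest by far, and the log2 change of -0.36 had an adjusted p of 0.218 in limma, and was -0.21 without that library. Psmd6 averaged 1120.3 ± 286 in ADREX ozone and 834 ± 134 in ADREX air livers (SD, n = 4 each), a log2 change of 0.40 with an adjusted p of 0.256 in limma, or 0.26 without ADREX ozone replicate 82. Psmd14 ranged from 730.4 to 2171 over all libraries, with both ends in single libraries, SHAM air replicate 4 and ADREX ozone replicate 82.

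The chaperones that assemble the 19S base are Psmd5, Psmd9 and Psmd10. Psmd9 had 213, 167, 235 and 269 normalized counts in ADREX ozone, 112, 105, 203 and 168 in ADREX air, 255, 239, 159 and 293 in SHAM ozone and 159, 187, 116 and 171 in SHAM air livers. It was the 1 gene with an unadjusted p under 0.05 for ozone in both operations. The log2 changes of 0.62 ± 0.25 in ADREX and 0.56 ± 0.25 in SHAM livers (SE) had limma adjusted p of 0.218 and 0.243, and groups overlapped in both. Psmd10, also known as gankyrin, had 101, 112, 98.7 and 40.3 in ADREX ozone livers and 48.3, 51.4, 56.6 and 44.2 in SHAM ozone livers. The low ADREX ozone value came from replicate 84, and the log2 change of 0.70 ± 0.32 (SE, adjusted p = 0.145) was 1.04 (0.0243) without that library.

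The Psmg genes encode the chaperones of the 20S core. Psmg1 had 661, 638, 816 and 801 normalized counts in ADREX air livers and 939, 1037, 931 and 1158 in SHAM air livers. No library of one group reached the other. The log2 change was -0.48 ± 0.16 (SE), with an interval of -0.82 to -0.15 and a limma adjusted p of 0.106. With array quality weights the adjusted p was 0.0207. This was 1 of 28 settings, and over all of them the adjusted p reached 0.320. Psmg3 had 53.8, 44.0, 46.1 and 53.3 in ADREX ozone, 24.7, 38.1, 38.7 and 35.5 in ADREX air and 36.2, 22, 39.2 and 35.4 in SHAM ozone livers. It had 49.1, 30.0, 23.8 and 40.1 in SHAM air livers. Its ADREX ozone values lay above all ADREX air and SHAM ozone values, though not above the highest SHAM air value, with adjusted p of 0.328 against ADREX air and 0.160 against SHAM ozone in limma. Psmg2 and Psmg4 gave log2 changes of 0.23 and 0.83 in ADREX against SHAM in air, with adjusted p of 0.602 and 0.232. Psmc3ip, the meiotic protein, ran from 9.79 to 30.6 over all libraries.

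Groups that did not overlap numbered 6 of 48 members in ADREX against SHAM under ozone (Psma7, Psmb1, Psme1 and Psmg3 higher, Psmd11 and Psme4 lower; 20.5% of all genes), 2 in ADREX against SHAM in air (Psme4 and Psmg1 lower; 9.27%), 1 with ozone in ADREX livers (Psmg3 higher; 9.96%) and 2 with ozone in SHAM livers (Psma2 and Psmb2 higher; 11.1%). The members' shares were 12.5%, 4.17%, 2.08% and 4.17% in the same order of comparisons. Each share lay below that of all genes.

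With ozone in ADREX livers 40 of the 48 rows had a log2 change above 0, against 56.6% of all genes, and the members' median was 0.21, against 0.06 for all genes. Under trimmed mean rescaling (TMM) the count was 33 of 48, with medians of 0.12 and -0.02. It was 34 without ADREX ozone replicate 82, 34 without ADREX air replicate 65 and 35 when the 3 libraries with the highest neural level were left out, and over all alternatives it ran from 33 to 41. The members share these 8 libraries, so their signs are not separate observations. In ADREX against SHAM under ozone 27 of 48 rows were above 0 and both medians were 0.11; rescaling moved the median of all genes by just over 0.1, to 0.01, and that of the members to 0.00. On leaving out 1 library the members' median under ozone ran from 0.03 to 0.16. With ozone in SHAM livers 29 rows were above 0 (medians 0.09 for the members and 0.01 for all genes), and the members' median ran from 0.03 without SHAM air replicate 3 to 0.15 without SHAM air replicate 1. In ADREX against SHAM in air 18 were above 0 (-0.08 and 0.04). There the members' median ran from -0.16 without ADREX air replicate 67 to -0.02 without replicate 66, where 24 rows were above 0. With the neural level as a covariate the direction turned, with 25 rows above 0 and medians of 0.01 for the members and -0.02 for all genes.

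**Figure D4:**
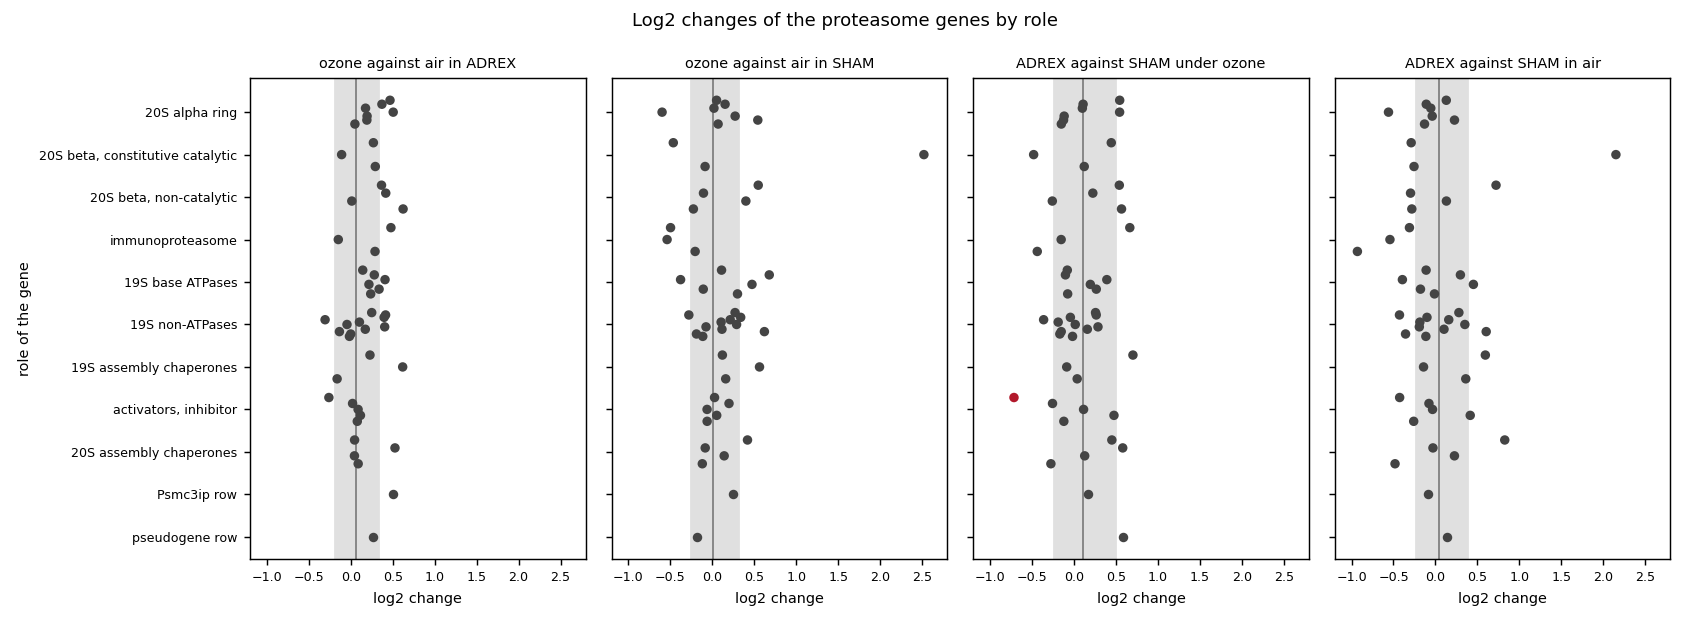
Log2 change of each of the 48 rows (points) by role (down the page) in the 4 comparisons between groups; the grey band spans the middle quartiles of all 12788 genes and the grey line is their median. The 1 red point, Psme4 in ADREX against SHAM under ozone, is the gene past the adjusted threshold, and the points far to the right are Psmb6.

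Single libraries carried much of the spread. ADREX ozone replicate 82 held the highest value of 15 members (31.2%, against 21.9% of all genes) and ADREX ozone replicate 84 that of 11 (22.9%, against 9.79%). The members that peaked in these libraries differed: Psmb4, Psmc3, Psmd3, Psmd7, Psmd14 and Psmg4 were among those highest in replicate 82, and Psma4, Psma7, Psmb1, Psmb10, Psmc4 and Psmd13 among those highest in replicate 84. The lowest value of 12 members (25%, against 4.18% of all genes) was in ADREX air replicate 65. The summed normalized count of the 46 proteasome genes was 38508 ± 4275 in ADREX ozone, 34751 ± 4175 in ADREX air, 37142 ± 1216 in SHAM ozone and 36098 ± 545 in SHAM air livers (SD, n = 4 each). The median coefficient of variation of the members was 25.5% in ADREX ozone, 23.0% in ADREX air, 11.9% in SHAM ozone and 20.7% in SHAM air livers, against 25.2%, 23.5%, 18% and 24.6% for all genes.

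Genes that work with the proteasome under other symbols changed in few cases. Of 8 tested partners and components, 1 (12.5%) fell in ADREX against SHAM under ozone by limma, the same share as the 12.5% of all genes called there, and limma called none in the other comparisons. DESeq2 also called 1 of the 8 with ozone in ADREX livers (4.46% of all genes) and 1 for the difference (1.95%). The gene that limma called under ozone was Ube3c, a ubiquitin ligase that sits on the proteasome and extends chains. Ube3c had 1244, 1364, 1445 and 1022 normalized counts in ADREX ozone livers and 1871, 1743, 1858 and 1870.0 in SHAM ozone livers. Its groups did not overlap, and the log2 change was -0.54 ± 0.13 (SE, adjusted p = 0.0125). The call held in 27 of 28 settings and was lost when the 3 libraries with the highest neural level were left out, with a log2 change no smaller (-0.62, adjusted p = 0.0675). Pomp, the maturation factor of the core, was listed at 0 to 17.9 and fell below the mean required for testing.

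Among the ubiquitin and shuttle factor genes, Nploc4, an adaptor of the Vcp segregase that pulls tagged proteins free, fell in ADREX against SHAM under ozone, with 647, 606, 826 and 509 normalized counts in ADREX ozone and 1202, 1072, 1002 and 1254 in SHAM ozone livers (log2 change -0.82 ± 0.18, SE; limma adjusted p = 0.00772). Its groups did not overlap. Of 12 genes tested on this list, limma called 1 in ADREX against SHAM under ozone (8.33%, below the 12.5% of all genes). There edgeR called 2, where it called 12.4% of all genes, and DESeq2 called 3, where it called 17.2%. Nploc4 was called in 27 of 28 settings, the exception being the fit without the 3 libraries of highest neural level, where the log2 change was again -0.82 (adjusted p = 0.0836). None of 7 regulators of proteasome genes, among them Nfe2l1 (the NRF1 factor that raises subunit genes when the protease is blocked), was called in any of the 5 comparisons by limma, edgeR or DESeq2, with 1 to 2 of the 7 at an unadjusted p under 0.05 in limma in each comparison (14.3% or 28.6%, where all genes gave 12.9% to 31.2%).

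Of 15 interferon and class I antigen processing genes, the list to which the immunoproteasome is closest, 2 (13.3%) rose in ADREX against SHAM under ozone by limma, a share near the 12.5% of all genes called there. DESeq2 called 3 in that comparison, where it called 17.2% of all genes, and limma, edgeR and DESeq2 called 0 in the other comparisons. At an unadjusted p under 0.05 limma gave 6 (40%) in ADREX against SHAM in air, against 20.2% of all genes. With ozone in SHAM it gave 5 (33.3%, against 18.4%) and with ozone in ADREX 3 (20%, against 17.8%). For the difference it gave 0 (12.9% of all genes), and in ADREX against SHAM under ozone 5 (33.3%, against 31.2%). Irf8, an interferon-responsive factor of myeloid cells, had 559, 580.3, 461 and 374 normalized counts in ADREX ozone and 307, 254, 308 and 301 in SHAM ozone livers (log2 change 0.74 ± 0.21, SE; adjusted p = 0.0294). Gbp2, an interferon-induced GTPase, had 536, 311, 330.2 and 279 in ADREX ozone and 269, 111, 172 and 178 in SHAM ozone livers (1.01 ± 0.28, SE; adjusted p = 0.0275). Neither overlapped between the groups. Irf8 was called in 18 of 28 settings (adjusted p up to 0.357) and Gbp2 in 20 (up to 0.301). Both calls were lost on leaving out SHAM ozone replicate 18, 19 or 20 or ADREX ozone replicate 81, and that of Irf8 also without SHAM ozone replicate 17 or ADREX ozone replicate 82 or 83, with log2 changes of 0.65 to 0.76 for Irf8 and 0.80 to 1.02 for Gbp2. Both were also lost under TMM rescaling (adjusted p = 0.0508 and 0.0513), Irf8 with the neural level as a covariate (0.0837), and Gbp2 in edgeR (0.0627) and in a fit to the 2 groups alone (0.0504). When the 3 libraries with the highest neural level were left out, the log2 changes were 0.44 and 0.59. In the same comparison the log2 changes of Psmb8, Psmb9 and Psmb10 were -0.44, -0.15 and 0.67, with limma adjusted p of 0.462, 0.83 and 0.162, and Psmb10 was 0.37 without ADREX ozone replicate 84 and 1.02 with the neural level as a covariate. The summed level of 8 Kupffer cell and macrophage markers was 585 to 1229 RPM in ADREX ozone and 491 to 696 in SHAM ozone livers, and its part in these changes was not tested.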

How the data were processed

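Per the labels' protocols, RNA came from frozen liver, mRNA was selected and PrepX libraries were read on a NextSeq 500. The submitters' processing notes name Partek, DESeq2 and build rn6; for the aligner, counting method, strand use and annotation, the entry is not given in the sources used here. Values in the table deposited by the authors are signal values, read counts divided by 1 size factor per library, called normalized counts above. Dividing each column by its step gave back whole reads for 100% of values within 0.01 (largest deviation 0.000537).

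The members and the gene lists were chosen with earlier results of these data known. All 48 symbols are in the RefSeq gene table (GRCr8), and 52 copies or pseudogenes are named there for 19 members, of which 1 is a row of the deposited table; counts of such genes are uncertain. Values were tested as log2(normalized count + 1) for the 12788 genes with a mean of at least 14.7, by limma 3.58.1 (R 4.3.3) with a trend, 4 group means, no covariate, all 16 libraries, 12 residual and 4.42 prior degrees of freedom, two-sided, Benjamini-Hochberg over all genes. Fold changes are on that scale, which can understate those of low genes, or overstate them where single libraries lie near 0. Psmb6 with ozone in SHAM livers, at 2.52 on that scale and 0.74 in edgeR, is such a case. Reads were also tested with edgeR 4.0.16 (quasi-likelihood) and DESeq2 1.42.0. On simulated data for ozone against air in SHAM (12788 genes), the limma test called 45 of 100 genes changed 2-fold, 95 of 100 changed 4-fold and 5 of 12588 unchanged. The changed genes were drawn only from genes with higher means, above those of Psmc3ip and Psmg3, so the shares do not cover such low genes. Counts were drawn independently for each gene and library, without shifts shared across a library. The ratios were compared with exact permutation tests in SciPy 1.17.1 over 70 splits.

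Named with values are the 6 catalytic subunits, members past the threshold or, where fewer than 4 passed, the 4 with the smallest p in a comparison, the rows nearest the mean threshold and list genes that passed, with an exception given at the end. Others (Psmb2, Psmb3, Psmd10, Psmd11, Psmd14, Psmg2, Psmg4, the remaining activator genes and Psma subunits given as a range) were added after their values were seen. The highest member of each role by level was not named, because levels of different genes compare only per length. Depth gives totals of 8372891 to 14096246 reads. Whether these totals or the count of libraries limits the precision more was not tested. Glucocorticoid targets served to check the labels: Fkbp5 and Sds rose with ozone in SHAM livers, Fkbp5 and Tdo2 fell in ADREX against SHAM under ozone and Sds rose in ADREX against SHAM in air (called in 11 of 28 settings), of 6 tested. Limma called 0 of the 6 with ozone in ADREX livers, so they do not check the air and ozone labels there. In ADREX against SHAM in air it called Sds higher and 0 of the 6 lower. A fall of these targets after adrenalectomy therefore does not check the operation labels in air. The sinusoidal endothelium list (7 of 8 in the table) summed to 237 to 368 RPM in ADREX ozone, 276 to 597 in ADREX air, 223 to 394 in SHAM ozone and 396 to 443 in SHAM air livers. A result on a list gene is not reported here.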

Additional observations from a re-analysis of the deposited data

Results flagged for a closer look

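In 3 of the 96 groups of 4 libraries examined, 1 library stood apart from the other 3 by a gap, relative to the group's range, above Dixon's 95% critical value; chance gives about 1 in 20. Psma4 had 1716 normalized counts in ADREX ozone replicate 84, with 616 to 681 in the other 3 libraries. The Psmb8 to Psmb5 log2 ratio was 0.118 in ADREX air replicate 68, with 0.821 to 0.895 in the other 3. The Psmb10 to Psmb7 log2 ratio was -3.79 in SHAM air replicate 3, with -2.20 to -1.95 in the other 3.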

How the results depend on the processing

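No paired analysis was possible because the replicate numbers differ between all groups. The count of members called in ADREX against SHAM under ozone was 1, but 6 with array quality weights (Psma7, Psmb1, Psmd10, Psme1, Psme3 and Psme4), 2 in a fit to the 2 groups alone (Psma7 and Psme4) and 0 when the 3 libraries with the highest neural level were left out; leaving out 1 library gave 0 to 3 (0 without SHAM ozone replicate 17 or ADREX ozone replicate 82). With the neural level as a covariate it was 1, but the gene was Psmb10 (log2 change 1.02, adjusted p = 0.0373). In ADREX against SHAM in air the count of 0 became 2 with array quality weights (Psmb8 and Psmg1) and 0 to 1 on leaving out a library, and with ozone in SHAM livers it became 1 with array quality weights, 1 in DESeq2 and 0 to 1 on leaving out a library. The cause was not tested.

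Differences in log2 ratio near 0 changed sign. Psmb8 to Psmb5 with ozone in ADREX became 0.0021 with a pseudocount of 10 and 0.323 with the 3 libraries of highest neural level left out, and Psmb9 to Psmb6 became 0.270 without those libraries. Leaving out 1 library gave, for Psmb8 to Psmb5, -0.334 to 0.396 with ozone in ADREX and -0.352 to 0.0433 in SHAM; for Psmb9 to Psmb6, -0.584 to 0.297 with ozone in ADREX and -0.216 to 0.665 in ADREX against SHAM under ozone; and for Psmb10 to Psmb7, -0.149 to 0.636 with ozone in ADREX, -0.461 to 0.185 in SHAM, -0.449 to 0.337 in ADREX against SHAM in air and -0.0604 to 0.648 under ozone.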
